A study of Mus musculus with 4 samples.

Results

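The clustered protocadherins were described in RNA labelled as from tumor-associated macrophages (TAMs) of NB9464 tumors, a subcutaneous mouse neuroblastoma model. Members were all protein-coding genes of the alpha, beta and gamma *Pcdh* clusters, chosen by symbol. No measured value enters this rule, but the clusters were picked for description with earlier results of these data known. This gave 57 of the 54532 genes counted, with 14 in the alpha cluster, 22 in the beta cluster and 21 in the gamma cluster. The gamma members were 12 of gamma-A, 6 of gamma-B and 3 of C type.

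Libraries M7 and M8 were labelled SYK WT and libraries M9 and M10 were labelled SYK KO. SYK KO mice carry floxed *Syk* on the C57BL/6 background and a Cre recombinase driven by the lysozyme M gene, which acts in myeloid cells, and SYK WT mice are their wild type controls. The labels give no age for the mice of each library, while the study's methods state a range in weeks for the mice that were implanted. Tumors grew from implanted NB9464 cells, no drug was given to either group, and tumors were taken on day 40. Cells were enriched by CD11b and F4/80 magnetic selection, and poly(A) RNA was sequenced. The labels also name bone marrow-derived macrophages as the RNA source, and the title of the series names an adoptive transfer, so the origin of the RNA is not fully settled by them. No label says whether the libraries of a genotype came from separate mice, so p-values measure only the spread between these libraries.

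Total counts ranged from 20755886 to 23518045 per library. *Syk*, the deleted gene, had 765, 569, 4033 and 2944 counts in M7, M8, M9 and M10. It was thus higher in the libraries labelled SYK KO (log2 fold change 2.80, adjusted p = 0.000674 by edgeR), which goes against the label. Every direction below therefore refers to the label of a library. A gene-level count cannot show whether the floxed exons of *Syk* were present. The libraries also stood apart in their cell type markers. The 10 macrophage markers were all detected but summed to 1294 and 917 CPM (library-scaled counts after TMM normalization) in M7 and M8 against 10373 and 6225 CPM in M9 and M10. The 8 fibroblast markers summed to 12626 and 14531 CPM in M7 and M8 against 4039 and 4958 CPM in M9 and M10. In M7 and M8 the fibroblast sum was thus above the macrophage sum, although the cells are described as selected for macrophage surface proteins. In these bulk libraries, fewer cells of a type and less RNA per cell cannot be told apart. The sympathoadrenal genes *Th* and *Dbh* were at 0 in all 4 libraries, whereas *Hand2* lay between 178 and 301 CPM. The mitochondrial share of counts was 2.20%, 2.34%, 6.00% and 15.9%, with M10 apart from the rest.

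Clustered protocadherins are cadherin-like adhesion proteins of the cell surface, best known from neurons, where each cell shows its own combination of them. Like proteins on opposed membranes bind each other, and this recognition lets the branches of a neuron avoid one another and tunes synapses and cell survival. Each variable exon of the alpha and gamma clusters has its own promoter and encodes the extracellular part, the membrane span and a short tail. It is spliced to constant exons at the end of the cluster that encode a tail common to all members. Beta genes lack such constant exons. The factor CTCF and the cohesin ring join promoters to distant enhancers and so take part in promoter choice. The promoters of *Pcdhac2*, *Pcdhgc4*, *Pcdhgc5* and *Pcdhb1* lack the conserved element found in the others.

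All members lie in tandem on the plus strand of chromosome 18 (GRCm38, GENCODE M21 models). The alpha cluster runs from 36930184 to 37187661, the beta cluster from 37264938 to 37524479 and the gamma cluster from 37661793 to 37841873. All 14 alpha members contain the same 3 exon stretches with 2860 bases in total, and all 21 gamma members contain the same 3 stretches with 2116 bases. At the median, 53.4% of the exon bases of an alpha member and 44.6% of those of a gamma member also belonged to another member. In the beta cluster no base was common to all members, and only *Pcdhb21* and *Pcdhb22* overlapped. Of all 31-base words of a member's transcripts, those also found in another member made up 44.9% to 70.2% in the alpha cluster, 27.3% to 67.5% in the gamma cluster and 0% to 22.5% in the beta cluster. A read from a constant exon does not show which alpha or gamma member it came from, so the counting program divided such reads by the evidence in the variable exons. Most beta members have mainly sequence of their own, with *Pcdhb12* as an exception. Sums over a whole cluster do not depend on how reads were divided among its members, but they do depend on the division with other genes that share its constant exons, such as *Pcdhgb8* in the gamma cluster. Levels of different genes are compared as CPM per kilobase of exon, and shares of a cluster's counts, which also grow with exon length, are compared only between libraries.

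At the level of whole clusters, beta and gamma transcripts were present in all 4 libraries and alpha transcripts came almost wholly from *Pcdhac2*. Counts summed over the alpha cluster were 41, 31, 50 and 133 in M7, M8, M9 and M10. Sums for the beta cluster were 5658, 5267, 1387 and 1613 counts. Sums for the gamma cluster were 6599, 6552, 3007 and 3318 counts. The beta and gamma sums of both libraries labelled SYK KO lay below those of both labelled SYK WT, and the alpha sums lay above. On the CPM scale the mean beta sum was 210.3 against 77.6 (log2 ratio -1.44) and the mean gamma sum was 254 against 163 (log2 ratio -0.63). Scaled to fibroblast markers the gamma ratio turned to 0.53, and scaled to macrophage markers the alpha ratio turned from 1.81 to -0.74. The beta ratio was -0.28 when libraries were scaled to the geometric mean of the fibroblast markers, but the beta sum divided by the plain sum of those markers had a log2 ratio of 0.15, so its sign depends on how that scaling is done. The ratio of the beta sum to the gamma sum within a library, which needs no scaling between libraries, was 0.857, 0.804, 0.461 and 0.486.

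**Figure D1:**
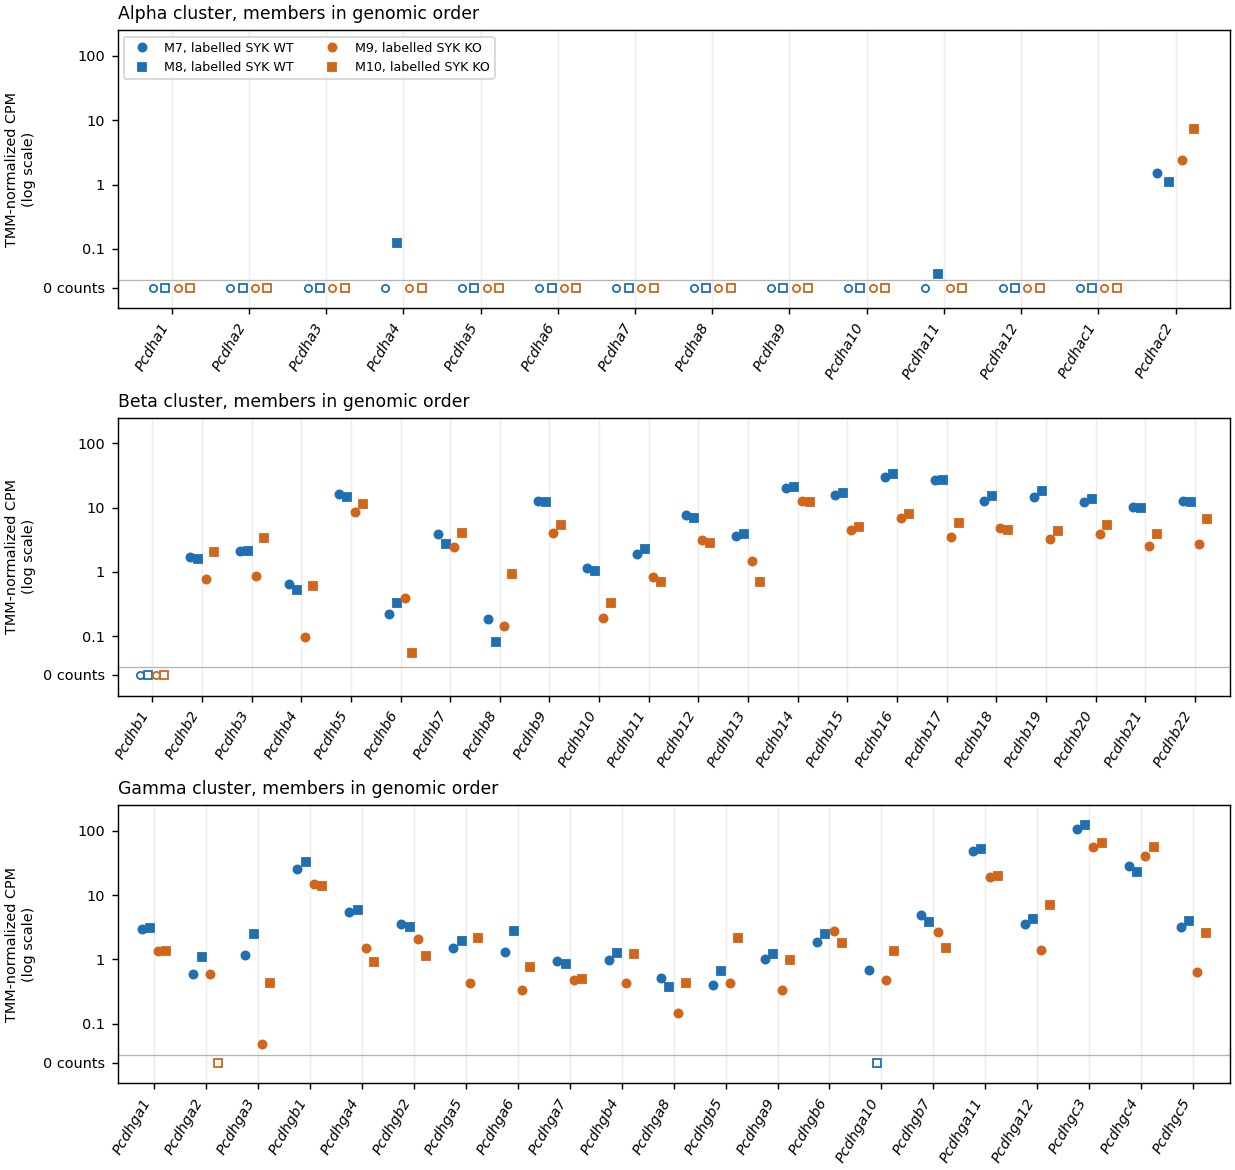
Level of each member in each library as TMM-normalized CPM on a log axis, with members in genomic order and 1 panel per cluster; blue points are M7 (circle) and M8 (square), labelled SYK WT, orange points are M9 (circle) and M10 (square), labelled SYK KO, and open points on the lowest line have 0 counts. In the alpha panel only *Pcdhac2* is above 3 counts, and from *Pcdhb9* to *Pcdhb22* both orange points lie below both blue points at every gene.

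Across all genes, 16.7% of the 16451 tested were lower and 22.7% were higher in the libraries labelled SYK KO with an adjusted p under 0.05 (edgeR's quasi-likelihood test, Benjamini-Hochberg). Both libraries labelled SYK KO lay below both labelled SYK WT for 37.2% of the genes tested and above them for 38.0%. The expression filter kept 40 of the 57 members, 1 of the alpha, 19 of the beta and 20 of the gamma cluster. With 2 libraries in each group, the smallest p that exact two-sided permutation allows for any member is 0.333. The adjusted p-values draw on variance estimates shared across genes.

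In the alpha cluster, *Pcdhac2*, the last variable exon of the cluster and a C-type member, was the only alpha gene above 3 counts in any library. Its counts (ENSMUSG00000102697, 37143503 to 37187657) were 41 and 27 in the SYK WT libraries and 50 and 133 in the SYK KO libraries. The groups did not overlap, but M10 stood far above the other 3 libraries. The level was 1.30 ± 0.280 CPM against 4.84 ± 3.41 CPM (SD, n = 2), and the log2 fold change was 1.89 (adjusted p = 0.0540 by edgeR, standard error 0.627).

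edgeR thus called 0 alpha members in either direction. At an unadjusted p under 0.05 it gave 1 higher and 0 lower, and DESeq2 called *Pcdhac2* higher (adjusted p = 0.0233). Without M10 the log2 fold change of *Pcdhac2* was 0.91 (adjusted p = 0.119 by edgeR), and scaled to macrophage markers it was -0.64. Of the other members, *Pcdha4* had 3 counts and *Pcdha11* had 1 count in M8 and 0 elsewhere. *Pcdha1*, *Pcdha2*, *Pcdha3*, *Pcdha5*, *Pcdha6*, *Pcdha7*, *Pcdha8*, *Pcdha9*, *Pcdha10*, *Pcdha12* and the C-type member *Pcdhac1* were at 0 in all 4 libraries. A count of 0 allows up to 3 counts, which corresponded to between 0.109 and 0.163 CPM in these libraries. *Pcdhac2* thus held 100%, 87.1%, 100% and 100% of the alpha counts in M7, M8, M9 and M10.

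In the beta cluster, 19 members were tested. Of these, 12 were lower in the libraries labelled SYK KO, against the 16.7% of all genes given above, while 0 were higher and 7 were not called. For 15 of the 19, against 37.2% of all genes, both libraries labelled SYK KO lay below both labelled SYK WT. At an unadjusted p under 0.05 edgeR gave 15 lower and 0 higher, and DESeq2 called 12 lower and 0 higher. The median log2 fold change was -1.44, with a range from -2.52 to 0.02, against 0.02 over all genes tested. *Pcdhb10* (31 and 25 counts against 4 and 6), one of the 15, passed the filter on its SYK WT counts. With at least 10 counts in every library, all 17 beta members left had a negative log2 fold change. Of these 17, 13 were lower, against 2777 of 13725 genes.

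The lower calls included the beta members with the highest levels. *Pcdhb16* (ENSMUSG00000047910, 37477814 to 37483038) had 825, 809, 141 and 146 counts in M7, M8, M9 and M10. Both pairs of libraries agreed closely within their group, and the groups lay far apart. The level was 31.5 ± 2.01 CPM against 7.40 ± 0.785 CPM (SD, n = 2). This was a log2 fold change of -2.09 (adjusted p = 0.00130 by edgeR, standard error 0.204). *Pcdhb17* (ENSMUSG00000046387, 37484795 to 37489454), its downstream neighbour, had 726 and 664 counts against 73 and 106. It had the lowest log2 fold change of the cluster, -2.52 (standard error 0.289, adjusted p = 0.00193 by edgeR). *Pcdhb15*, the upstream neighbour, had 426 and 413 counts against 91 and 90 (log2 fold change -1.79). *Pcdhb19* had 404 and 439 counts against 67 and 79 (log2 fold change -2.11). In each of these 4 genes the groups did not overlap, and M10 lay above M9 on the CPM scale.

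The other beta genes that were lower had log2 fold changes nearer to 0 than *Pcdhb15*. *Pcdhb9* had 350 and 300 counts against 82 and 98 (log2 fold change -1.42), and *Pcdhb18* had 350 and 374 against 99 and 82 (log2 fold change -1.59). *Pcdhb20* had 331 and 335 counts against 79 and 99 (log2 fold change -1.48), and *Pcdhb21* had 276 and 240 against 52 and 70 (log2 fold change -1.65). These 4 genes fell by like amounts, and their groups did not overlap. *Pcdhb12* had 209 and 166 counts against 64 and 51 (log2 fold change -1.29), but 66.9% of its 31-base words occur in other genes, the antisense gene *Gm37446* among them. *Pcdhb13* had 99 and 95 counts against 30 and 13 (log2 fold change -1.78), and *Pcdhb22* had 343 and 303 against 55 and 122 (log2 fold change -1.42). In both, M9 and M10 differed from each other by a factor of over 2 in counts. *Pcdhb14* had 555 and 506 counts against 259 and 227, the smallest difference among the 12 (log2 fold change -0.71, adjusted p = 0.0302 by edgeR).

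*Pcdhb5* was not called among the highly expressed beta genes. It (ENSMUSG00000063687, 37320381 to 37323915) had 440, 362, 177 and 210 counts in M7, M8, M9 and M10. The groups did not overlap on the CPM scale, but the log2 fold change of -0.62 did not pass the test (standard error 0.247, adjusted p = 0.0906 by edgeR). It was called lower without M10, when SYK KO is M9 alone and the spread is that of M7 and M8 (log2 fold change -0.83). Scaled to library size only it was also called lower (-1.17, adjusted p = 0.0116 by edgeR). The same held when scaled to macrophage markers (-3.29, adjusted p = 1.41e-07 by edgeR), where 14200 genes were lower. Per kilobase, *Pcdhb5* at 4.35 CPM lay behind *Pcdhb16* (6.03), *Pcdhb15* (5.77) and *Pcdhb17* (5.74) in the libraries labelled SYK WT. In those labelled SYK KO it was the highest beta member at 2.83 CPM per kilobase, ahead of *Pcdhb15* at 1.66. The ratio of *Pcdhb5* to *Pcdhb17* counts within a library was 0.606, 0.545, 2.42 and 1.98, a pair picked after the values were seen.

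**Figure D2:**
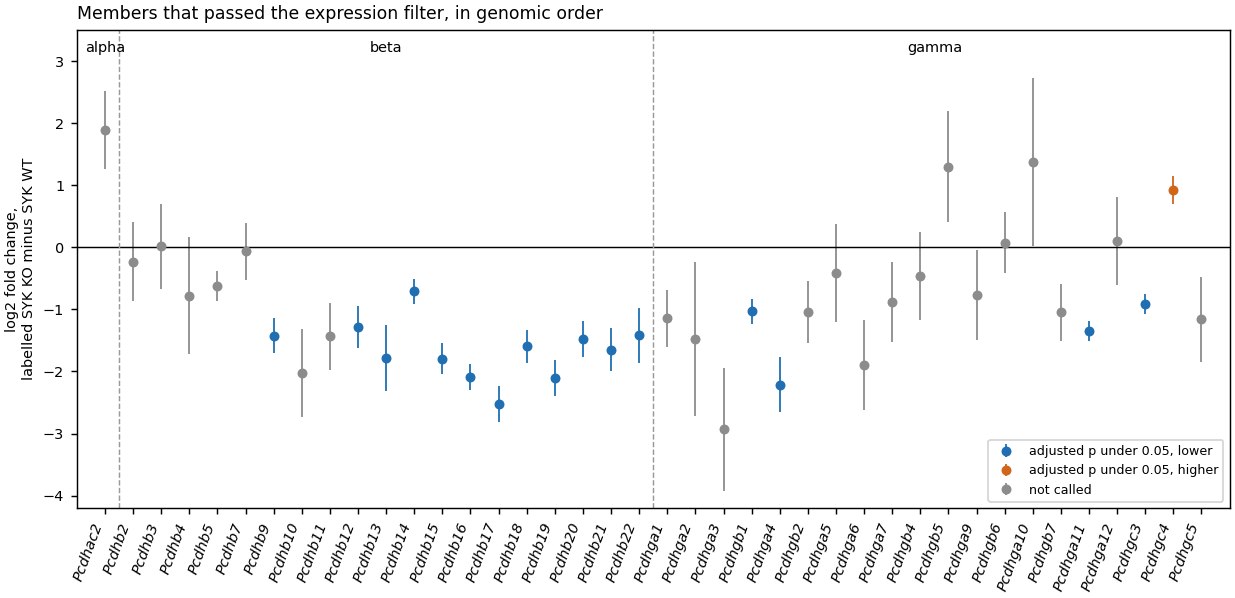
Log2 fold change of the libraries labelled SYK KO against those labelled SYK WT (edgeR, points) with its standard error (bars) for the 40 members that passed the expression filter, in genomic order; blue marks lower and orange marks higher members with an adjusted p under 0.05. The 12 blue beta points lie between *Pcdhb9* and *Pcdhb22*, and *Pcdhgc4* is the only orange point.

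The difference was uneven along the cluster. From *Pcdhb1* to *Pcdhb8*, 5 of 8 members passed the filter, 0 were called by edgeR or DESeq2, 1 (*Pcdhb5*) had an unadjusted edgeR p under 0.05, and the groups overlapped in 4 of the 5. From *Pcdhb9* to *Pcdhb22*, all 14 passed the filter, 12 were lower and the groups overlapped in 0 of 14, with SYK KO below in each. Over all genes tested, 16.7% were lower and 22.7% higher, and both libraries labelled SYK KO lay below both labelled SYK WT for 37.2%. The split between *Pcdhb8* and *Pcdhb9* was chosen after the values were seen, so it carries no test. Over the 19 members, Spearman's rho between log2 fold change and genomic order was -0.63, a description over genes that share the same 4 libraries. In the gamma cluster the same measure had the opposite sign, with rho of 0.45 over 20 members. Levels per kilobase rose along the beta cluster, with rho over the 22 members of 0.56, 0.58, 0.45 and 0.33 in M7, M8, M9 and M10. Summed over the first 8 beta members, the level was 24.8 and 22.1 CPM against 13.3 and 22.4 CPM. Over the last 14 it was 181 and 192 CPM against 54.0 and 65.5 CPM.

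M9 and M10 did not behave alike at the weakly expressed 5′ members. *Pcdhb3* had 58 and 51 counts in M7 and M8, 18 in M9 and 62 in M10, and its log2 fold change was 0.02. *Pcdhb2* had 46, 39, 16 and 37 counts (log2 fold change -0.23), and *Pcdhb7* had 108, 67, 50 and 73 (log2 fold change -0.06). *Pcdhb4*, *Pcdhb6* and *Pcdhb8* stayed at 18 counts or below in every library. Of these, *Pcdhb6* and *Pcdhb8* did not pass the filter, and *Pcdhb4* had a log2 fold change of -0.78 with a standard error of 0.944. *Pcdhb1* was at 0 in all 4 libraries.

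Beta members above 3 counts numbered 21, 20, 19 and 20 in M7, M8, M9 and M10. The effective number of members, a measure of how evenly the counts are spread over them, was 14.0, 13.7, 13.9 and 15.1. *Pcdhb16* held 14.6%, 15.4%, 10.2% and 9.05% of the beta counts. *Pcdhb14* held 9.81%, 9.61%, 18.7% and 14.1%, higher in both libraries labelled SYK KO.

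Leaving out a library leaves its genotype with 1 library, and the spread then comes from the other pair alone. Lower calls over all genes fell without M7 or without M8 and rose without M9 or without M10. Of the 12 lower calls, 5 remained without M7 and 4 without M8, where the spread came from M9 and M10. All 12 remained without M9 or without M10, where it came from M7 and M8, the pair that differed less (chi-square per degree of freedom 50.6, against 168 for M9 and M10). *Pcdhb15*, *Pcdhb16*, *Pcdhb17* and *Pcdhb19* were called lower whichever library was left out. Scaled to the fibroblast markers, 3 of the 12 were still lower, namely *Pcdhb16*, *Pcdhb17* and *Pcdhb19*. Over all 16451 genes, 433 were lower and 9476 higher on that scaling. *Pcdhb5* and *Pcdhb14* then turned to log2 fold changes of 0.54 and 0.48.

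The beta sum was set beside markers of 7 cell types or lineages. Per 1000 CPM of summed fibroblast markers, the beta sum was 16.3, 14.7, 16.7 and 17.7 CPM in M7, M8, M9 and M10. Of the 8 fibroblast markers, 5 were lower and 0 higher in the libraries labelled SYK KO by edgeR, with a median log2 fold change of -1.49. At an unadjusted p the counts were also 5 and 0, and DESeq2 gave 5 and 0. For comparison with this and the other marker lists, edgeR called 16.7% of all genes lower and 22.7% higher. Per 1000 CPM of the 8 pericyte and smooth muscle markers, of which 6 were lower (median log2 fold change -1.54), the beta sum was 360, 378, 511 and 502 CPM. Per 1000 CPM of macrophage markers, all 10 of which were higher, it was 159, 234, 6.49 and 14.1 CPM. Per 1000 CPM of the 8 endothelial markers, of which 3 were lower, it was 966, 996, 419 and 566 CPM. The log2 ratio of the beta sum to the sympathoadrenal markers was -1.14, that to the Schwann cell markers was -1.59, and that to the pan-leukocyte markers was -4.92. The ratio to the fibroblast markers, 0.15, was the nearest to 0 of the 7. The fibroblast sum came mostly from *Col1a1* and *Col3a1* (5662 and 6158 of 12626 CPM in M7). The fibroblast markers *Dcn*, *Lum* and *Fap* were not called (log2 fold changes -0.28, -0.63 and -0.07). Scaled to the geometric mean of the fibroblast markers, the beta sum had a log2 ratio of -0.28. The part of these cell types in the beta result was not tested.

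The gamma cluster held the members with the highest levels, and its C-type genes *Pcdhgc3* and *Pcdhgc4* were called in opposite directions. Scaled to fibroblast markers both had positive log2 fold changes (0.27 and 2.07), and scaled to macrophage markers both had negative ones (-3.63 and -1.72). Of the 20 gamma members tested, 4 were lower (*Pcdhgc3*, *Pcdhga11*, *Pcdhgb1* and *Pcdhga4*), 1 was higher (*Pcdhgc4*) and 15 were not called. For 13 of the 20, both libraries labelled SYK KO lay below both labelled SYK WT, against 37.2% of all genes, and for 1 they lay above, against 38.0%. With the main filter, the share of tested gamma members called lower, 4 of 20, is close to the background of 16.7%. The median log2 fold change was -0.97, with a range from -2.93 to 1.37. At an unadjusted p under 0.05, 7 were lower and 1 was higher, and DESeq2 called 5 lower and 1 higher. Low members counted among the 13, such as *Pcdhga3* (32 and 62 counts against 1 and 8), passed the filter on their SYK WT counts. With at least 10 counts in every library, 11 gamma members remained, 8 with a negative log2 fold change. Of these 11, 5 were lower, against 2777 of 13725 genes.

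*Pcdhgc3* (ENSMUSG00000102918, 37806364 to 37841873) was the highest clustered protocadherin in all 4 libraries. Its counts were 2877 and 2959 in M7 and M8 and 1165 and 1169 in M9 and M10. The pairs agreed closely and the groups did not overlap. The level was 113 ± 11.0 CPM against 60.1 ± 5.05 CPM (SD, n = 2), and the log2 fold change was -0.91 (adjusted p = 0.00755 by edgeR, standard error 0.162). Of the 31-base words of *Pcdhgc3*, 66.2% occur in other genes, the other members and the antisense gene *BC037039* among them. *BC037039* itself had 59, 21, 37 and 0 counts, and whether counting used strand is not given in the sources used here.

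*Pcdhgc4* (ENSMUSG00000023036, 37815079 to 37841873), the next variable exon and a gene that supports neuronal survival, moved the other way. It had 763 and 559 counts against 820 and 1038, so both libraries labelled SYK KO lay above both labelled SYK WT. The level was 25.3 ± 3.58 CPM against 48.2 ± 11.8 CPM (SD, n = 2). The log2 fold change was 0.93 (adjusted p = 0.0200 by edgeR, standard error 0.224). The call was lost without M8 (log2 fold change 0.78) and scaled to library size only (0.38). Scaled to macrophage markers *Pcdhgc4* was called lower instead (-1.72, adjusted p = 0.00174 by edgeR), as were 14200 genes in all. Within each library the ratio of *Pcdhgc4* to *Pcdhgc3* counts was 0.265, 0.189, 0.704 and 0.888, so the pair differed between the groups without any scaling between libraries. The pair was picked after its values were seen and carries no test. *Pcdhgc5*, the third C-type gene, had 87 and 97 counts against 13 and 47 (log2 fold change -1.16, adjusted p = 0.222 by edgeR). Without M10, when SYK KO is M9 alone and the spread is that of M7 and M8, the log2 fold change of *Pcdhgc5* was -2.47 (adjusted p = 0.000420 by edgeR). Without M9 it was -0.56 (adjusted p = 0.260 by edgeR).

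**Figure D3:**
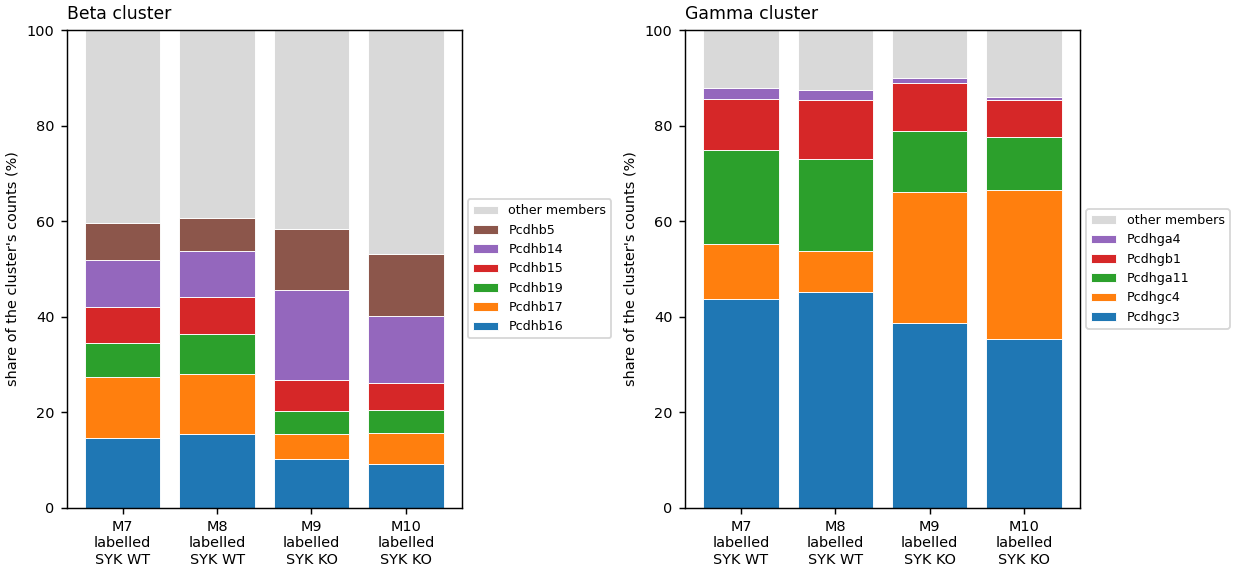
Share of the counts of the beta cluster (left) and the gamma cluster (right) held by named members in each library, in percent; each bar is 1 library and sums to 100%, and grey is all other members. *Pcdhgc4* takes 11.6% and 8.53% of the gamma counts in M7 and M8 and 27.3% and 31.3% in M9 and M10, and *Pcdhb5* and *Pcdhb14* widen as *Pcdhb16* and *Pcdhb17* narrow.

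Of gamma-A, *Pcdhga11* (ENSMUSG00000102742, 37755731 to 37841873) led in every library. It had 1306 and 1265 counts against 390 and 369, with close agreement within each group. The level was 49.5 ± 2.73 CPM against 19.5 ± 0.829 CPM (SD, n = 2). The log2 fold change was -1.34 (adjusted p = 0.00217 by edgeR, standard error 0.162). The antisense gene *Gm26672*, with 59, 78, 9 and 34 counts, overlaps it, and 73.3% of the 31-base words of *Pcdhga11* occur in other genes. *Pcdhga4* had 151 and 144 counts against 31 and 17 (log2 fold change -2.22, adjusted p = 0.0110 by edgeR). *Pcdhgb1*, which led gamma-B, had 707 and 805 counts against 301 and 258 (log2 fold change -1.03, adjusted p = 0.0103 by edgeR). The models of *Pcdhgb1* and *Pcdhga4* overlap, and 63.9% and 67.5% of their 31-base words occur in other members, so their counts depend on how reads were divided between them.

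The remaining gamma-A and gamma-B genes were low, with at most 132 counts in any library. Their log2 fold changes ran from -2.93 in *Pcdhga3* (32 and 62 counts against 1 and 8) to 1.37 in *Pcdhga10* (19 and 0 against 10 and 25), and edgeR called 0 of these. At an unadjusted p under 0.05 it gave 3 lower (*Pcdhga1*, *Pcdhga3* and *Pcdhga6*), and DESeq2 called *Pcdhga3* lower. M10 was above M9 in several of them. *Pcdhga12* had 99, 104, 29 and 130 counts, and *Pcdhgb5* had 11, 16, 9 and 40. Of the 31-base words of *Pcdhga10*, 99.4% occur in other genes, so its counts depend on how reads were divided. Summed by type, gamma-A was 67.4 and 75.4 CPM against 26.1 and 36.1 CPM, and gamma-B was 37.3 and 44.1 CPM against 22.9 and 21.9 CPM. The C-type sum was 136 and 147 CPM against 97.0 and 123 CPM. The groups of all 3 sums were separate on this scaling, with log2 ratios of -1.20 for gamma-A, -0.86 for gamma-B and -0.36 for the C-type genes. Their distances from 0 depend on the scaling.

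*Pcdhgc3* held 43.6% and 45.2% of the gamma counts in M7 and M8 and 38.7% and 35.2% in M9 and M10. *Pcdhga11* held 19.8%, 19.3%, 13.0% and 11.1%. Per kilobase, *Pcdhga11* was above *Pcdhgc4* in the libraries labelled SYK WT (10.4 against 4.52 CPM) and below it in those labelled SYK KO (4.10 against 8.61 CPM). The effective number of gamma members was 6.15, 6.09, 5.66 and 6.14, so a few genes carried the gamma cluster in every library.

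The 4 lower gamma calls were fewer without a library labelled SYK WT, at 3 without M7 and 1 (*Pcdhga11*) without M8, and all 4 remained without M9 or without M10. The count of gamma members called lower was 10 without M9 and 10 without M10, when SYK KO is 1 library and the spread is that of M7 and M8, and lower calls over all genes then also rose, from 2747 to 4498 and 4745. Without M7 or without M8, lower calls over all genes fell as well. Scaled to fibroblast markers, 0 gamma members were lower and 2 were higher (*Pcdhgc4* and *Pcdhgb5*). Of all 16451 genes, 433 were then lower and 9476 higher. On that scaling *Pcdhgc3* and *Pcdhgb1* turned to log2 fold changes of 0.27 and 0.17, while the median of all genes moved to 1.19. Per 1000 CPM of fibroblast markers the gamma sum was 19.1, 18.3, 36.1 and 36.5 CPM, and per 1000 CPM of macrophage markers it was 186, 291, 14.1 and 29.0 CPM. The gamma sum thus lay lower against macrophage markers and higher against fibroblast markers in M9 and M10. Its log2 ratio was -0.19 to the endothelial, -0.33 to the sympathoadrenal and -0.77 to the Schwann cell markers. To the pericyte and smooth muscle markers it was 1.27, and to the pan-leukocyte markers -4.13. The part of these cell types was not tested.

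**Figure D4:**
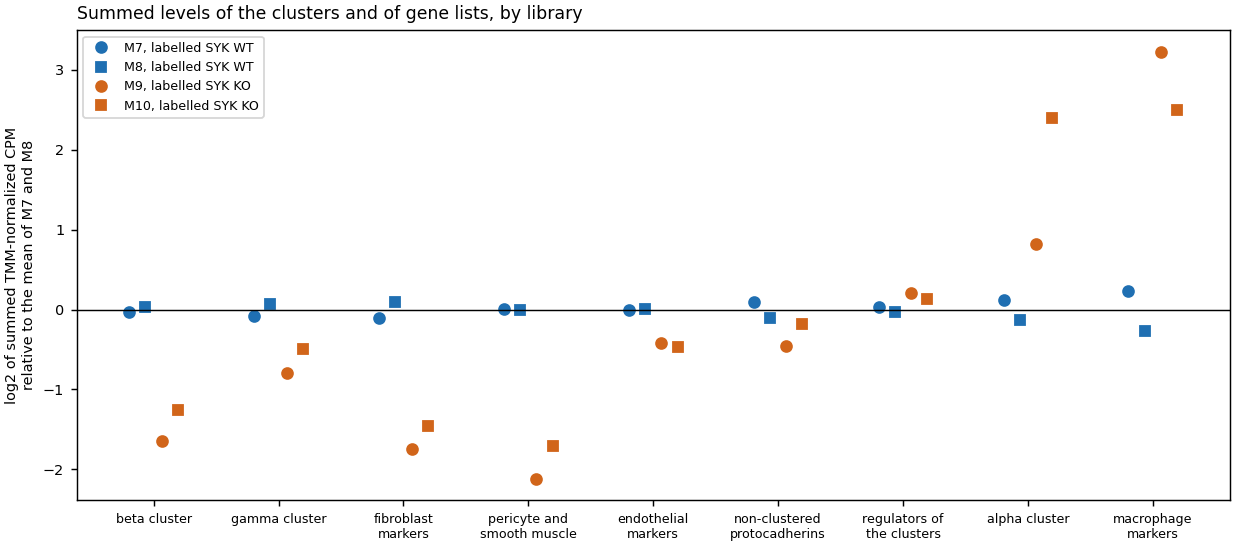
Summed TMM-normalized CPM of the clusters, of cell type marker lists and of related gene lists in each library, as log2 relative to the mean of M7 and M8; symbols as in the plot of member levels. The beta cluster in M9 and M10 lies near the fibroblast and pericyte markers, and on this scaling the gamma cluster lies below 0 and the alpha cluster above it, signs that turn when libraries are scaled to fibroblast and to macrophage markers, respectively.

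Of 12 protein-coding genes next to and between the clusters, 4 were higher, against 22.7% of all genes, 2 were lower, against 16.7%, and 6 were not called. *Zmat2*, before the alpha cluster, had a log2 fold change of 1.29, and *Diaph1*, just after the gamma cluster, had 1.42. *Fchsd1*, further downstream, was lower (-1.61). *Taf7*, between the beta and gamma clusters, had a log2 fold change of 0.60 (adjusted p = 0.108 by edgeR).

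The genes that control promoter choice in the clusters gave no call. Of 12 such regulators, edgeR called 0 in either direction, with 2 higher and 1 lower at an unadjusted p under 0.05, and DESeq2 called 0. Over all genes edgeR called 22.7% higher and 16.7% lower. Their median log2 fold change was 0.16, with a range from -0.39 to 0.49. *Ctcf* was at 55.6, 56.0, 80.3 and 63.8 CPM (log2 fold change 0.37, adjusted p = 0.131 by edgeR). *Rad21*, a cohesin subunit, had a log2 fold change of 0.49 (adjusted p = 0.0597 by edgeR), and *Nipbl*, which loads cohesin, had -0.39 (adjusted p = 0.0841 by edgeR). *Smchd1*, a silencer of the clusters, had 0.18, and *Setdb1*, a histone methyltransferase that acts there, had -0.13.

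Among 17 intracellular partners and proteases, 9 were higher, against 22.7% of all genes, 2 were lower, against 16.7%, and 6 were not called. The kinases that bind the constant alpha and gamma tails differed in direction. *Ptk2*, which encodes focal adhesion kinase, was lower, at 128 and 145 CPM against 62.5 and 96.2 CPM (log2 fold change -0.78, adjusted p = 0.0386 by edgeR). *Ptk2b*, which encodes the related kinase Pyk2, was higher, at 13.1 and 13.1 CPM against 62.1 and 57.3 CPM (log2 fold change 2.19, adjusted p = 0.000729 by edgeR). The groups did not overlap in either gene. Of the WAVE complex, which links alpha tails to actin, *Nckap1* was lower (-0.65) and *Cyfip1* (0.81), *Cyfip2* (2.95) and *Brk1* (1.59) were higher. Of gamma-secretase, which cuts protocadherin tails, *Psen2* (1.17) and *Psenen* (26.5 and 20.3 CPM against 83.1 and 48.9 CPM) were higher. *Fyn*, a Src-family kinase, was also higher (0.69), and *Adam10*, the protease that sheds the extracellular part, had 0.41 (adjusted p = 0.157 by edgeR). *Ptk2b* and *Fyn* are expressed in leukocytes as well, and all 6 pan-leukocyte markers were higher, with summed levels of 344 and 254 CPM against 3985 and 2845 CPM. Their part in these values was not tested.

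Protocadherins outside the clusters and a list of *Cdh* cadherins were read from the same fit. Of 12 non-clustered protocadherins, 7 were tested and edgeR called 0, also 0 at an unadjusted p under 0.05, and DESeq2 called 0. With 7 genes tested and 22.7% higher and 16.7% lower over all genes, this count says little. The median log2 fold change of the 7 was -0.59. *Pcdh1* was at 9.33 and 10.1 CPM against 7.77 and 5.18 CPM (log2 fold change -0.59, adjusted p = 0.176 by edgeR), so the groups did not overlap. The same held for *Pcdh12* (log2 fold change -1.15) and *Pcdh17* (-0.85), both lower in M9 and M10. Both libraries labelled SYK KO lay below both labelled SYK WT for 37.2% of all genes. The groups overlapped in *Pcdh7*, *Pcdh9* (-1.22), *Pcdh18* and *Pcdh19*. *Pcdh18* lay between 9.03 and 13.3 CPM in all 4 libraries (-0.22), and *Pcdh7* at 3.97, 1.75, 3.06 and 9.86 CPM followed no group. *Pcdh8* and *Pcdh15* were at 0 in all libraries. Of 7 *Cdh* cadherins tested, 1 was higher and 1 was lower, against 22.7% and 16.7% of all genes. *Cdh1* was higher, at 1.39 and 1.79 CPM against 31.2 and 22.4 CPM (log2 fold change 4.08, adjusted p = 0.000729 by edgeR). *Cdh11*, a cadherin of mesenchymal cells, was lower, at 4.85 and 2.28 CPM against 0.583 and 0.872 CPM (log2 fold change -2.29, adjusted p = 0.0264 by edgeR).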

How the data were processed

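Genotypes were taken from the sample labels. The authors aligned the reads to mm10 by STAR, estimated abundance with Salmon, and deposited raw counts per Ensembl gene, without normalization. The submitters' processing notes also name STAR 2.6.1d and Salmon 1.4.0. How whole numbers were made from Salmon's estimates is not given in the sources used here. The study's methods describe single reads in triplicate on another instrument than the labels, which give paired reads and 2 libraries per genotype.

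Symbols, positions and exons came from GENCODE M21 (54495 genes matched), and 2 members that share a symbol there were told apart by their RefSeq position. *Pcdhgb8*, a polymorphic pseudogene there, was not a member. Counts were analysed in R 4.3.3 with edgeR 4.0.16 (filterByExpr, TMM, glmQLFit, glmQLFTest), with Benjamini-Hochberg adjustment over 16451 genes and a threshold of 0.05, and the method was tested on simulated data. CPM are TMM-normalized, with SD over 2 libraries. TMM factors of 1.22 and 1.19 (M7, M8) and 0.876 and 0.787 (M9, M10) set the zero of every fold change. Replicates differed by more than sampling noise (chi-square per degree of freedom 50.6 for SYK WT and 168 for SYK KO). The floor of 3 counts reflects counting error alone, and the labels name no molecular identifiers, so reads may not be independent molecules. The summed levels of clusters and lists were described without a test.

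Named with all counts were the 5 members per cluster with the highest mean CPM per kilobase, every member with an adjusted p under 0.05, and all C-type members. Members at 0 were named only. Other members named were picked after their values were seen. Members and lists were chosen with earlier results of these data known. Alternatives were DESeq2 size factors, library size only, scaling to 8 fibroblast or 10 macrophage markers, no filter beyond 1 count, a minimum of 10 counts per library, DESeq2 1.42.0 (Wald), and each library left out in turn.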

Additional observations from a re-analysis of the deposited data

How the results depend on the processing

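No paired analysis was possible because the labels give no pairing between libraries of the 2 genotypes. DESeq2 size factors changed no cluster count beyond 1.5 times. Scaled to library size only, 1677 genes were higher and 5411 lower, 0 gamma members were higher and 8 lower, and the log2 ratios of the beta and gamma sums were -1.98 and -1.18. Scaled to fibroblast markers, 9476 genes were higher and 433 lower, 1 alpha member was higher, 3 beta members were lower, and 2 gamma members were higher and 0 lower. The sums were then 2.89 for alpha, -0.28 for beta and 0.53 for gamma, and *Pcdhb5* (0.54), *Pcdhb14* (0.48), *Pcdhgc3* (0.27) and *Pcdhgb1* (0.17) changed sign among the members named by rule. Over all tested members, those with a negative log2 fold change went from 18 to 13 of 19 in the beta and from 15 to 6 of 20 in the gamma cluster. Scaled to macrophage markers, 136 genes were higher and 14200 lower, 19 beta members were lower, and 0 gamma members were higher and 18 lower. The sums were then -0.74 for alpha, -4.13 for beta and -3.34 for gamma, and *Pcdhac2* (-0.64) and *Pcdhgc4* (-1.72) changed sign. The scalings differ by construction, since they moved the median log2 fold change of all genes from 0.02 to -0.52 (library size), 1.19 (fibroblast) and -2.70 (macrophage). With at least 1 count, with at least 10 counts in every library and with the Wald test of DESeq2, 1 alpha member was higher.

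With each library left out in turn, genes higher ranged from 1478 to 5010 and genes lower from 807 to 4745. Beta members lower ranged from 4 to 15 and higher from 0 to 1. Gamma members lower ranged from 1 to 10 and higher from 0 to 2, and alpha members higher from 0 to 1. The log2 ratio of the alpha sum ranged from 0.83 to 2.31, that of the beta sum from -1.63 to -1.35 and that of the gamma sum from -0.78 to -0.57. The lowest counts of calls came without M8, and the lowest alpha ratio without M10. The single beta member called higher, without M9, was *Pcdhb8*, with 5, 2 and 17 counts in the other libraries. Leaving out any library leaves its genotype with 1 library, which is then assumed to vary like the other pair. The fits without M9 or M10 take the spread from M7 and M8 alone, and calls kept or gained there are no sign of stability. *Pcdhb1* and the alpha members other than *Pcdhac2* stayed at 3 counts or below in every library. No difference was detectable for them at this depth, and why they were so low was not tested.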

Other observations

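*Pcdhgb8*, which lies between *Pcdhga11* and *Pcdhga12* in the gamma cluster and is annotated as a polymorphic pseudogene, had 78, 46, 1 and 14 counts in M7, M8, M9 and M10. Its log2 fold change was -2.55 (adjusted p = 0.0900 by edgeR), so it did not pass the test. The long gene models that run from the alpha into the gamma cluster, *Gm37013*, *Gm37388* and *Gm42416*, were at 0 in all 4 libraries. *Gm10544*, a minus-strand transcript inside the alpha cluster near *Pcdhac2*, had 27, 32, 2 and 20 counts in M7, M8, M9 and M10 (log2 fold change -0.96, adjusted p = 0.481 by edgeR).

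Within the gamma cluster, *Pcdhgb1* kept a like ratio to *Pcdhgc3* in all 4 libraries, at 0.246, 0.272, 0.258 and 0.221. The ratio of *Pcdhga11* to *Pcdhgc3* was 0.454, 0.428, 0.335 and 0.316, and that of *Pcdhgc4* to *Pcdhga11* was 0.584, 0.442, 2.10 and 2.81. In the beta cluster the ratio of *Pcdhb14* to *Pcdhb17* was 0.764, 0.762, 3.55 and 2.14. These pairs were picked after their values were seen, and they are given without a test.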
